A study of Mus musculus with 9 samples.

Results

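The genes described here encode the enzymes, transporters and regulators of glycolysis together with the hypoxia-inducible factors (HIF), their oxygen sensors and a set of HIF targets. They were chosen by name, 34 genes in all, and all 34 were found among the 38621 genes of the deposited table of mouse brain RNA. They comprise 16 glycolytic enzymes (Hk1, Hk2, Gpi1, Pfkl, Pfkm, Pfkp, Aldoa, Tpi1, Gapdh, Pgk1, Pgam1, Eno1, Eno2, Pkm, Ldha and Ldhb), 4 transporters of glucose or lactate (Slc2a3, Slc16a1, Slc16a3 and Slc16a7), 2 regulators of flux (Pdk1 and Pfkfb3), 8 HIF targets (Vegfa, Adm, Bnip3, Egln3, Ankrd37, Car9, P4ha1 and Ndrg1), and 4 further genes of the hypoxia response (Hif1a, Epas1, Egln1 and Bnip3l). Brain RNA was sequenced from 9 male C57BL/6 mice that formed a sham, an ICH and a feb group of 3 each. ICH mice received an injection of their own blood into the brain, a model of intracerebral hemorrhage. Sham mice had the operation with saline according to the study's methods and are labelled as untreated, and feb mice were gavaged with febuxostat, a xanthine oxidase inhibitor, each day ahead of the same blood injection. No group received febuxostat without blood, and the sources used here name neither the dissected region nor the time after injection for these libraries.

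Glycolysis splits glucose into pyruvate, which is either reduced to lactate in the cytosol or oxidized in mitochondria. In the brain, astrocytes are known for making and exporting lactate and neurons for taking it up. When oxygen falls, the prolyl hydroxylases that mark HIF-1α (Hif1a) and HIF-2α (Epas1) for destruction slow down, the stabilized factors pair with Arnt, and they bind a short DNA core to switch on glycolytic enzymes, Vegfa and other targets. HIF is controlled mainly through the stability of its protein, which RNA levels do not show.

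The HIF-binding core is ACGTG or GCGTG, searched on both strands (written CACGT or CACGC when the match is on the other strand, with CACGTG holding ACGTG on both). Of the 34 genes, 29 had a 300-base promoter window in RefSeq for GRCm38.p6, from 250 bases before the start site. ACGTG was present in 16 of these 29 windows (55.2%), against 19.7% of all 27025 windows and 20.7% of the 17491 windows of protein-coding genes. Either core was present in 22 of 29 (75.9%), against 43.8% and 49.2%. The genes were chosen by name for glycolysis and the hypoxia response. These shares therefore describe that choice and are not a result of the expression data. Among the HIF targets 6 of 7 windows held a core, and among the enzymes 10 of 16. Of the members called higher in ICH than in sham mice, Ldha, P4ha1, Pdk1, Pfkl and Hk1 had a window, and that of Hk1 held neither core. The stretches below show cores of the other 4 and, for comparison, those of Pgk1, an enzyme with ACGTG cores whose level in ICH mice was close to that in sham mice. They are written 5′ to 3′ along the gene, in lower case with the cores in capitals.
Ldha, chr7:46845647-46845786, plus strand, bases -157 to -18 relative to the start site: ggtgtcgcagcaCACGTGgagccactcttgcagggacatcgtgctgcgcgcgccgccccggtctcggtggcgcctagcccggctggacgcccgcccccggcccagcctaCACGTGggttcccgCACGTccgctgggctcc
P4ha1, chr10:59323121-59323295, plus strand, bases -175 to -1 relative to the start site: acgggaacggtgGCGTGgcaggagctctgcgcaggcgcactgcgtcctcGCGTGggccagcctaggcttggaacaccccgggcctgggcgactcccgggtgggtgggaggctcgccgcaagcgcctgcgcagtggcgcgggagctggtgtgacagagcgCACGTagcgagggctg
Pdk1, chr2:71873134-71873162, plus strand, bases -90 to -62 relative to the start site: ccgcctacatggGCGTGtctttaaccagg
Pfkl, chr10:78009890-78009918, minus strand, bases -111 to -83 relative to the start site: atttgtagactgGCGTGcgctccgccttt
Pgk1, chrX:106186938-106186985, plus strand, bases -162 to -115 relative to the start site: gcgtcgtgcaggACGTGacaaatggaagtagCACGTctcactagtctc
These stretches lie outside annotated exons. The Vegfa window held neither core, which says only that these letters are not in that window.

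Expression was given as RPKM, which corrects the reads of a gene for the length of its exons and for the depth of the library. That length takes in all annotated exon bases of a gene (1570 for Ldhb, 11839 for Slc16a7), whether or not they are expressed here. Levels of the same gene can be compared between mice, while levels of different genes compare only roughly. Between 23065757 and 29538009 reads were counted per mouse, and the members had from 13 reads (Car9, lowest mouse) to 27820 (Pkm, highest mouse). The feb libraries stood apart in their choroid plexus markers, 8 of 8 of which were lower than in ICH mice, with a summed RPKM of 30.6 to 88.4 in feb mice, 458 to 967 in ICH mice and 365 to 1035 in sham mice. The ICH replicate 2 library stood apart in Gfap, at an RPKM of 573 against 54.5 to 160 in the other 8 mice, and ICH replicate 1 in red blood cell markers, with a summed RPKM of 123.8 against 17.1 to 40.6. The feb mice had the lowest sums of these markers, at 17.1 to 21.6, against 32.3 to 40.6 in sham and 26.7 to 123.8 in ICH mice. In feb against ICH mice 4 of 5 were lower, all over 2-fold, while Alas2 had a log2 change of 0.47. Microglia markers summed to 29.9 to 47.8 in ICH mice, 24.6 to 32.4 in sham mice and 21.9 to 26.8 in feb mice, and 4 of 5 were lower in feb than in ICH mice. Neuron markers summed to 462 to 519 in sham, 503 to 546 in ICH and 452 to 502 in feb mice, so brain tissue was present in every library. Of these markers 3 of 6, led by Slc17a7, were higher in ICH than in sham mice. Tubb3 went the other way, with all ICH values (55.7 to 74.5) below all sham values (79.8 to 96.7), though not called. Snap25 and Gad1 were not called, with log2 changes of 0.004 and 0.17. None of these markers was at 0 in all mice, and leukocyte markers were near it, with sums from 0.440 to 1.71. Fewer cells of a type and less RNA per cell cannot be told apart in these bulk samples, and what these cell types contribute to the results below was not tested.

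The changes of the glycolysis and hypoxia genes were small, and none passed 2-fold. After ICH, Ldha, Slc16a7, Pdk1 and P4ha1 were among the members that were higher, while Vegfa, Adm, Bnip3 and the other HIF targets had no call. In ICH against sham mice, 7 of the 34 genes were higher at an unadjusted p under 0.05 (limma on log2(RPKM + 0.1), a scale that understates the change of low genes): Ldha, Hk1, Pfkl, Slc16a7, Slc2a3, Pdk1 and P4ha1. By the same rule 7.88% of the 29025 genes tested were higher. Ldhb and Epas1 were lower, 2 of 34, against 4.42% of genes tested. In feb against ICH mice, 7 of 34 were lower (Ldha, Eno1, Pfkp, Tpi1, Slc16a7, Pdk1 and P4ha1), against 6.16% of genes tested, and 0 were higher, against 4.9%. In feb against sham mice, 6 of 34 were lower (Eno1, Eno2, Pgam1, Pgk1, Slc16a1 and Vegfa), against 2.9% of genes tested, and 0 were higher, against 5.63%. With a fold change over 2 as well, the members called were 0 in every contrast, against 2.53%, 2.43% and 2.2% of genes tested. After Benjamini-Hochberg adjustment over all genes 0 members passed 0.05 by limma, with the lowest adjusted p at 0.22 for P4ha1 in feb against ICH mice, and limma with voom on the recovered reads also gave 0.

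The groups did not overlap, with every ICH mouse above every sham mouse, for 5 of 34 members against 13.2% of genes tested, and with every ICH mouse below for 2 against 6.22%. All feb values lay under all ICH values for 9 members against 10.1% of genes, and over them for 0 against 7.04%. All feb values lay under all sham values for 6 members against 4.9% of genes, and over them for 1 (Pfkl) against 7.78%. Expressed genes were called more often than the rest. Among the 17661 genes with a mean RPKM of at least 1, 10.02% were higher and 5.57% lower in ICH against sham mice. In feb against ICH mice 5.56% of them were higher and 7.90% lower, and in feb against sham mice 5.82% were higher and 3.40% lower. An exact permutation test of 3 mice against 3 cannot give a two-sided p below 0.1, so single genes were tested only in the fit across all genes.

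**Figure D1:**
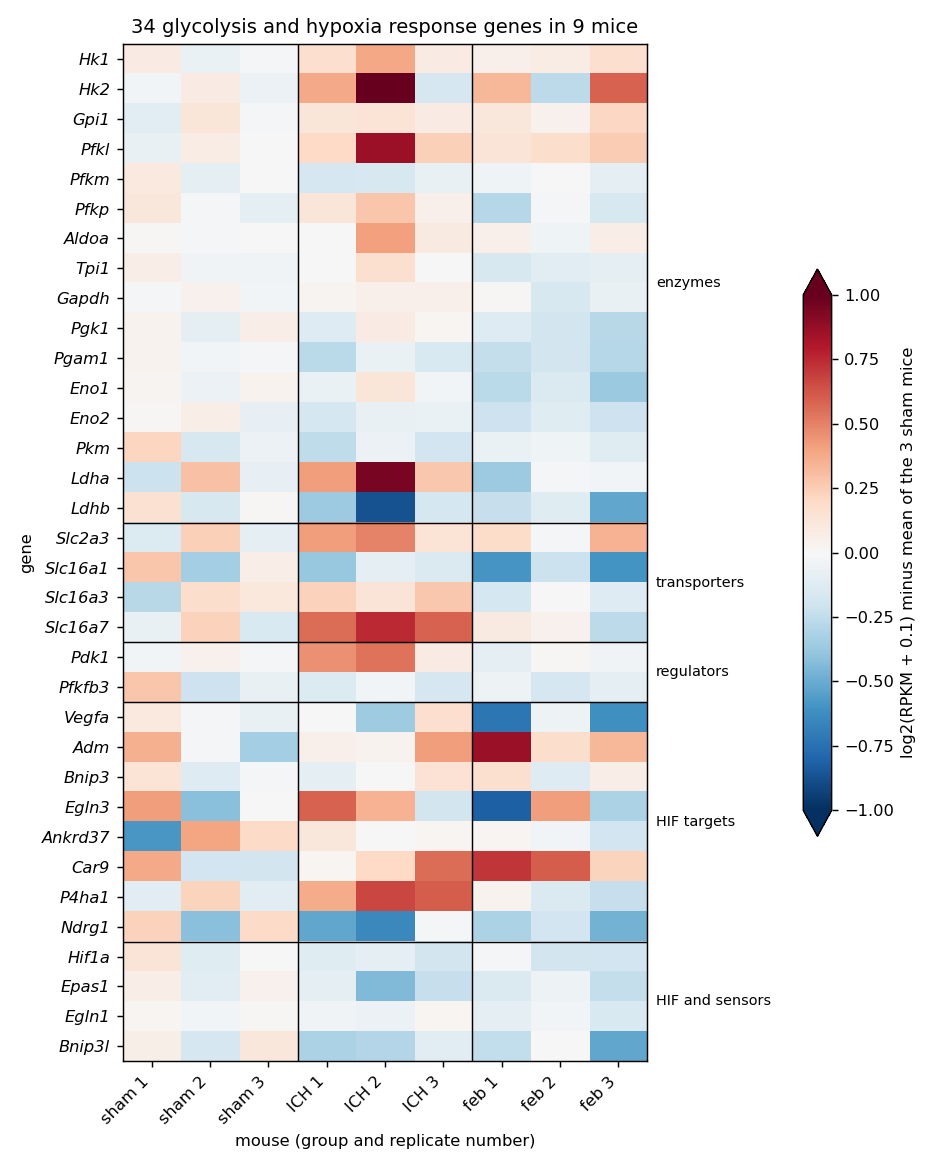
Heat map of the 34 genes (rows, in their groups) in the 9 mice (columns), as log2(RPKM + 0.1) minus the mean of the 3 sham mice, with colors ending at a difference of 1 in either direction. Slc16a7 and P4ha1 are raised in all 3 ICH mice, while Ldha, Pfkl, Hk2 and Aldoa are highest in ICH replicate 2 and Vegfa is lowest in feb replicates 1 and 3.

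The calls in ICH against sham mice depended on single libraries. The 9 members called became 4 without ICH replicate 2, 3 without sham replicate 1 and 2 without sham replicate 3, and P4ha1 and Slc16a7 were the members called under every alternative tried in this contrast. Ldha, Ldhb, Pdk1, Slc2a3 and Epas1 each lost the call without sham replicate 1, without sham replicate 3 or without ICH replicate 2. Pdk1 lost it also without ICH replicate 1, Slc2a3 without ICH replicate 1 or feb replicate 1, and Epas1 without ICH replicate 3 or feb replicate 1. Pfkl lost its call without sham replicate 1 or sham replicate 3, and Hk1 kept its call in 2 of the 9 fits with a mouse left out. In feb against ICH mice, P4ha1, Slc16a7, Ldha and Eno1 kept theirs in all 9 such fits, Pfkp and Pdk1 in 7 and Tpi1 in 4. In feb against sham mice the 6 members called became 3 without sham replicate 3 or without feb replicate 1 and 2 without feb replicate 3. Pgam1 and Eno1 kept their calls in all 9 fits, Eno2 and Slc16a1 in 5, Pgk1 in 4 and Vegfa in 3. The median change of all genes was 0.08 on the log2 scale in ICH against sham mice and 0.05 in feb against sham mice. When the mice were scaled to equal medians, these became -0.02 and -0.05. The split of all calls in ICH against sham mice then turned from 2288 higher and 1282 lower to 1185 higher and 2037 lower, and that of the members from 7 higher and 2 lower to 3 higher and 3 lower. In feb against sham mice the split of all calls turned from 1635 higher and 843 lower to 1042 higher and 1479 lower, and the members went from 6 to 8 lower.

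Most of the glycolytic enzymes were among the more abundant RNAs of the tissue by RPKM. Aldoa was at percentile 99.5 of the genes tested, Ldha at 91.1 and Hk2 at 46.3. Aldoa, the aldolase that splits the 6-carbon sugar, had the highest mean RPKM of the members over the 9 mice (191.7), followed by Ldhb (158.0) and the pyruvate kinase gene Pkm (153.8). This order depends on the exon lengths used, which were 3762 bases for Aldoa, 1570 for Ldhb and 5001 for Pkm. The summed RPKM of the 16 enzymes was 1223, 1125 and 1150 for sham, 1080, 1189 and 1133 for ICH and 1089, 1104 and 1056 for feb mice. These sums overlapped between sham and ICH mice, and 2 of the 3 feb sums also lay within the range of the ICH mice. At the low end were Hk2 (1.48), Egln3 (1.03), Slc16a3 (0.447) and Car9 (0.341).

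At the entry of the pathway, hexokinase traps glucose by phosphorylating it. Hk1, the main brain form, had RPKM values of 37.1, 33.5 and 34.7 in sham, 39.3, 46.0 and 37.2 in ICH and 36.3, 37.0 and 39.4 in feb mice. Every ICH value was above every sham value, by a narrow margin in ICH replicate 3, and the log2 change was 0.21 ± 0.09 (SE, unadjusted p = 0.045, adjusted p = 0.40 by limma). Hk2, the inducible form and a known HIF target, ranged from 0.982 to 2.69 and reached its highest value in ICH replicate 2, with no call in any contrast. Phosphofructokinase commits the sugar to glycolysis, and its liver form Pfkl had RPKM values of 16.4, 18.2 and 17.3 in sham, 19.8, 31.3 and 20.4 in ICH and 18.9, 19.6 and 20.6 in feb mice. Pfkl was higher in ICH than in sham mice by 0.43 ± 0.16 on the log2 scale (SE, unadjusted p = 0.026, adjusted p = 0.38 by limma), and without ICH replicate 2 the difference was 0.22. The muscle form Pfkm had the highest RPKM of the 3 forms and ranged from 79.8 to 95.8 with no call. It had 5718 to 8365 reads per mouse on 2957 exon bases, and the platelet form Pfkp had 5046 to 7840 on 9395. Which of these forms is more abundant is therefore uncertain.

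The platelet form Pfkp had RPKM values of 28.3, 25.7 and 24.4 in sham, 28.4, 31.5 and 27.0 in ICH and 21.4, 25.9 and 23.3 in feb mice. All feb values were below all ICH values, and the log2 change was -0.30 ± 0.10 (SE, adjusted p = 0.35 by limma). Tpi1, which interconverts the triose phosphates, had 74.2, 69.1 and 68.9 in sham, 70.8, 79.2 and 70.6 in ICH and 63.2, 65.6 and 66.4 in feb mice. Feb values lay below those of both other groups, with a log2 change of -0.17 ± 0.07 against ICH mice (SE, adjusted p = 0.43 by limma), which lost its call in 5 of the 11 alternatives that kept all mice. Gapdh, the triose dehydrogenase often used as a reference gene, had 70.4, 73.1 and 69.9 in sham, 72.5, 73.6 and 73.8 in ICH and 71.6, 63.6 and 67.5 in feb mice. The log2 change of Gapdh was 0.04 in ICH against sham mice (95% interval -0.11 to 0.19) and -0.12 in feb against ICH mice (-0.27 to 0.03), with no call. Near-identical genes, 85 of which are in the table, held reads equal to up to 31.2% of those of Gapdh, so its level is uncertain.

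Pgk1, Pgam1, Eno1 and Eno2, enzymes of the lower steps that lead to ATP and phosphoenolpyruvate, were lower in feb than in sham mice. Pgk1, which makes the first ATP, had RPKM values of 42.8, 39.1 and 43.7 in sham, 38.2, 44.2 and 42.5 in ICH and 38.3, 36.8 and 34.5 in feb mice. The Pgk1 change in feb against sham mice was -0.19 ± 0.08 on the log2 scale (SE, adjusted p = 0.58 by limma), and that in ICH against sham mice was -0.01. Pgam1, the phosphoglycerate mutase, had 72.4, 69.4 and 70.2 in sham, 58.7, 67.6 and 63.6 in ICH and 60.0, 62.1 and 58.0 in feb mice. All ICH and all feb values of Pgam1 lay below all sham values, with log2 changes of -0.16 ± 0.07 in ICH (unadjusted p = 0.051) and -0.24 ± 0.07 in feb mice (SE, unadjusted p = 0.0097, adjusted p = 0.56 by limma).

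Enolase makes phosphoenolpyruvate, and Eno1, its general form, had RPKM values of 67.7, 63.7 and 67.9 in sham, 63.4, 72.3 and 65.1 in ICH and 55.2, 60.0 and 51.3 in feb mice. Feb values of Eno1 were below all other mice, by -0.27 ± 0.08 against ICH and -0.26 ± 0.08 against sham mice on the log2 scale (SE, adjusted p = 0.32 and 0.56 by limma). Eno2, the neuronal form, had 79.9, 82.9 and 75.1 in sham, 70.1, 75.4 and 75.8 in ICH and 68.5, 73.0 and 68.6 in feb mice, and was lower in feb than in sham mice by -0.18 ± 0.07 (SE, adjusted p = 0.58 by limma). Near-identical genes held reads equal to up to 16.9% of those of Pgam1, 12.3% of Eno1 and 9.88% of Pgk1, and with these reads added the feb against sham calls of all 3 remained. Gpi1, Aldoa and Pkm had no call in any contrast, with log2 changes from -0.17 to 0.17, and Pkm shares 15.3% of its exon bases with another gene on the same strand.

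In ICH against sham mice the enzymes called included both genes of lactate dehydrogenase, whose A subunit (Ldha) favors lactate production and whose B subunit (Ldhb) is the main heart and neuronal form. Ldha, on chr7:46841475-46855627, had RPKM values of 14.5, 20.7 and 15.97 in sham, 22.6, 32.7 and 20.4 in ICH and 13.1, 16.8 and 16.6 in feb mice. The ICH mice lay above all feb mice, and above all sham mice except that ICH replicate 3 was just under sham replicate 2. Ldha was 1.46-fold higher in ICH than in sham mice (95% interval 1.06 to 2.004, adjusted p = 0.38 by limma) and 0.625 of the ICH level in feb mice (0.455 to 0.857, adjusted p = 0.31). Without ICH replicate 2 the rise in ICH mice was 0.34 on the log2 scale and no longer called (unadjusted p = 0.083), and the fall in feb mice was -0.48 and still called (unadjusted p = 0.026).

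Ldhb moved the other way, with RPKM values of 205.1, 165.5 and 186.2 in sham, 143.5, 101.3 and 163.5 in ICH and 158.0, 170.1 and 129.2 in feb mice. All ICH values were below all sham values, closely so for ICH replicate 3 and sham replicate 2, and the log2 change was -0.47 ± 0.18 (SE, unadjusted p = 0.031, adjusted p = 0.39 by limma). Without ICH replicate 2 it was -0.27 and not called. Within each mouse, the ratio of Ldhb to Ldha RPKM, which does not depend on the scaling between mice, was 14.1, 7.99 and 11.7 in sham, 6.36, 3.09 and 8.02 in ICH and 12.05, 10.1 and 7.79 in feb mice. The mean ratio was 11.3 ± 3.08 (SD, n = 3) for sham, 5.82 ± 2.51 (SD, n = 3) for ICH and 9.99 ± 2.13 (SD, n = 3) for feb mice, and the ICH range overlapped both others. The level of this ratio depends on the exon lengths used (1570 bases for Ldhb, 3310 for Ldha), so it serves to compare mice only. Oligodendrocyte markers also varied between libraries, with summed RPKM of 464 to 669 in sham, 361 to 637 in ICH and 320 to 555 in feb mice.

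Among the transporters, Slc16a7 (MCT2), the high-affinity monocarboxylate carrier of neurons, had the largest changes in ICH against sham and in feb against ICH mice, and Slc16a1 in feb against sham mice. Slc16a7 (chr10:125219270-125389465, minus strand) had RPKM values of 1.48, 1.85 and 1.397 in sham, 2.35, 2.70 and 2.40 in ICH and 1.67, 1.62 and 1.29 in feb mice. All ICH mice lay above all others, at 1.55-fold the sham level (95% interval 1.21 to 1.99, adjusted p = 0.33 by limma). Feb mice were at 0.627 of the ICH level (0.489 to 0.805, adjusted p = 0.25 by limma), and at 0.971 of the sham level (0.757 to 1.25). Slc17a7, a glutamatergic neuron marker, was also higher in ICH mice, with RPKM values of 18.5, 17.9 and 11.9 in sham, 45.2, 66.2 and 32.6 in ICH and 19.0, 30.2 and 30.7 in feb mice. Its log2 change in ICH against sham mice was 1.54. For the other neuron markers this change was 0.32 (Rbfox3), 0.29 (Syt1), 0.17 (Gad1), 0.004 (Snap25) and -0.43 (Tubb3). The part of neuron markers in the Slc16a7 result was not tested.

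Slc2a3 (GLUT3), the main glucose carrier of neurons, had RPKM values of 6.46, 8.43 and 6.64 in sham, 9.58, 10.1 and 7.85 in ICH and 8.13, 7.05 and 9.08 in feb mice. The groups overlapped, and the log2 change of 0.35 ± 0.15 in ICH against sham mice (SE, unadjusted p = 0.042, adjusted p = 0.40 by limma) lost its call in 4 of the 11 alternatives that kept all mice. Slc16a1 (MCT1), found in endothelium and glia, had 8.12, 5.26 and 6.99 in sham, 5.11, 6.24 and 6.04 in ICH and 4.40, 5.74 and 4.39 in feb mice. Slc16a1 was lower in feb than in sham mice by -0.47 ± 0.18 on the log2 scale (SE, adjusted p = 0.56 by limma), with sham replicate 2 inside the feb range. Endothelial markers, 3 of 5 of which were lower in feb than in sham mice, summed to 29.3 to 36.9 in sham and 23.0 to 29.6 in feb mice, and the choroid plexus markers given above were lower too. Slc16a3 (MCT4), the lactate exporter of highly glycolytic cells, ranged from 0.337 to 0.539 with no call.

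Pdk1, the kinase that inhibits pyruvate dehydrogenase and so keeps pyruvate out of mitochondria, had RPKM values of 2.92, 3.07 and 2.93 in sham, 4.13, 4.37 and 3.16 in ICH and 2.79, 3.004 and 2.90 in feb mice. The sham and feb mice were tightly grouped, and ICH replicates 1 and 2 were far above them while ICH replicate 3 was close to the highest sham mouse. The log2 change was 0.36 ± 0.13 in ICH against sham mice (SE, adjusted p = 0.37 by limma) and -0.40 ± 0.13 in feb against ICH mice (SE, adjusted p = 0.35), and both calls were lost without ICH replicate 1 or ICH replicate 2. Pfkfb3, which makes the activator of phosphofructokinase, ranged from 4.55 to 6.38 with no call.

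**Figure D2:**
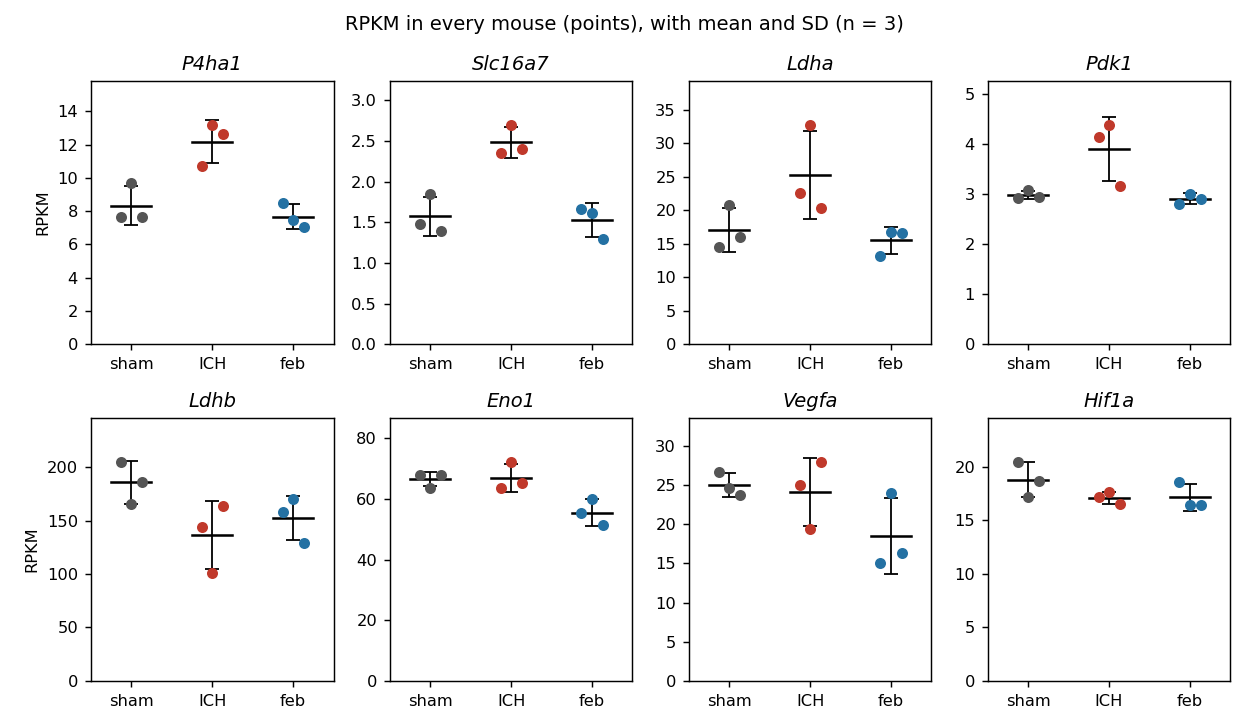
RPKM of 8 members in every mouse (points), with the mean and SD of each group of 3 (bars), each panel starting at 0. P4ha1, Slc16a7, Ldha and Pdk1 are higher in ICH mice than in feb mice without overlap, Ldhb is lowest in ICH replicate 2, Eno1 is lowest in feb mice, and Hif1a overlaps in all groups.

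Of the 8 HIF targets, P4ha1 alone was called in ICH against sham mice. P4ha1 (chr10:59323296-59373304, plus strand) encodes the catalytic subunit of collagen prolyl 4-hydroxylase, which hydroxylates collagen and is distinct from the oxygen sensors. It had RPKM values of 7.66, 9.69 and 7.65 in sham, 10.7, 13.2 and 12.6 in ICH and 8.50, 7.49 and 7.03 in feb mice. All ICH mice were above all others. The level in ICH mice was 1.46-fold that in sham mice (95% interval 1.19 to 1.79, unadjusted p = 0.0024, adjusted p = 0.33 by limma). In feb mice it was 0.633 of the ICH level (0.517 to 0.776, unadjusted p = 0.00072, adjusted p = 0.22 by limma) and 0.925 of the sham level (0.755 to 1.13). The ICH against sham and feb against ICH contrasts share the 3 ICH mice, so an unusual ICH value enters both.

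Vegfa, the vascular growth factor and best known HIF target, had RPKM values of 26.6, 24.6 and 23.7 in sham, 25.1, 19.5 and 28.0 in ICH and 15.1, 24.04 and 16.3 in feb mice. The ICH mice spread around the sham mice, with 0.958-fold the sham level (95% interval 0.712 to 1.29), while feb replicates 1 and 3 were the lowest of all mice and feb replicate 2 lay among the rest. Vegfa was lower in feb than in sham mice by -0.46 ± 0.19 on the log2 scale (SE, unadjusted p = 0.037, adjusted p = 0.58 by limma), and the call was lost without any of the sham mice, ICH replicate 1, feb replicate 1 or feb replicate 3. The 8 choroid plexus markers were lower in all feb mice, including feb replicate 2, with summed RPKM of 30.6, 56.1 and 88.4, and Rgs5, a pericyte marker, had 13.5, 19.9 and 12.2 in feb against 20.2 to 23.3 in the other mice. Of the 4 markers of pericytes and smooth muscle, Rgs5 was the 1 called in feb against sham mice. Their sums overlapped, at 25.6 to 43.3 in feb and 36.9 to 47.7 in sham mice. The part of all these markers in the Vegfa result was not tested.

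The other 6 HIF targets had no call in any contrast. Adm, which encodes the vasodilator adrenomedullin, had RPKM values of 1.99, 1.51 and 1.19 in sham, 1.59, 1.57 and 2.08 in ICH and 2.87, 1.74 and 1.95 in feb mice, with overlap throughout. Car9, the hypoxia-induced carbonic anhydrase, had only 13 to 30 reads per mouse and RPKM values of 0.367, 0.216 and 0.216 in sham, 0.266, 0.314 and 0.431 in ICH and 0.492, 0.447 and 0.320 in feb mice. Its log2 change of 0.51 in feb against sham mice was the largest of any member in that contrast, with a 95% interval of -0.11 to 1.13. Bnip3, a mitophagy receptor, ranged from 15.5 to 19.0, and its level in ICH mice was 1.01-fold the sham level (0.854 to 1.201). Ndrg1, abundant in myelinating cells, ranged from 9.83 to 18.1, Ankrd37 from 1.83 to 3.68 and the inducible oxygen sensor Egln3 from 0.511 to 1.52. Single opposite-strand genes share 22.7% of the exon bases of Ankrd37 (Lrp2bp) and 22.3% of those of Bnip3, and the use of strand in counting is not given in the sources used here. Ufsp2, also on the opposite strand, shares 3.70% of the exon bases of Ankrd37. It had 599 to 880 reads per mouse, against 83 to 148 for Ankrd37.

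Of the transcripts of the factors themselves, Hif1a had no call and Epas1 was lower after ICH. Hif1a had RPKM values of 20.5, 17.2 and 18.7 in sham, 17.2, 17.6 and 16.5 in ICH and 18.6, 16.5 and 16.4 in feb mice. The groups overlapped, and the level in ICH mice was 0.913-fold the sham level (95% interval 0.796 to 1.05). Epas1, the form of endothelium and astrocytes, had 45.6, 40.2 and 44.9 in sham, 40.8, 32.0 and 37.1 in ICH and 39.4, 42.1 and 36.9 in feb mice. Epas1 was lower in ICH than in sham mice by -0.25 ± 0.10 on the log2 scale (SE, unadjusted p = 0.036, adjusted p = 0.39 by limma), with ICH replicate 1 above sham replicate 2, and without ICH replicate 2 it was -0.16 and not called. Egln1, the main oxygen sensor that tags HIF for destruction, ranged from 14.2 to 16.03 with no call. Bnip3l, a paralog of Bnip3, ranged from 14.3 to 22.2 with no call.

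Set side by side, the enzymes and the HIF targets had similar mean changes. Of 16 enzymes, 3 were higher and 1 lower in ICH against sham mice, with a median log2 change of 0.05, and of 8 HIF targets 1 was higher and 0 lower, with a median of 0.11. Of all genes tested, 7.88% were higher and 4.42% lower, with a median of 0.08. In feb against ICH mice 4 enzymes and 1 HIF target were lower, with medians of -0.13 and -0.05, against 6.16% lower and a median of -0.01 for all genes. In feb against sham mice 4 enzymes and 1 HIF target were lower, with medians of -0.10 and -0.09, against 2.9% lower and a median of 0.05 for all genes. The mean log2 change of the enzymes minus that of the HIF targets was -0.04, -0.01 and -0.04 in the 3 contrasts, smaller than the spread of the same quantity between mice of a group (pooled SD 0.14). It changed sign when single mice were left out, with values from -0.14 to 0.05 in ICH against sham mice. Close means do not show that the 2 lists changed alike. In the 3 contrasts the change was below 0 for 6, 12 and 11 of the 16 enzymes, and for 2, 4 and 5 of the 8 HIF targets.

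**Figure D3:**
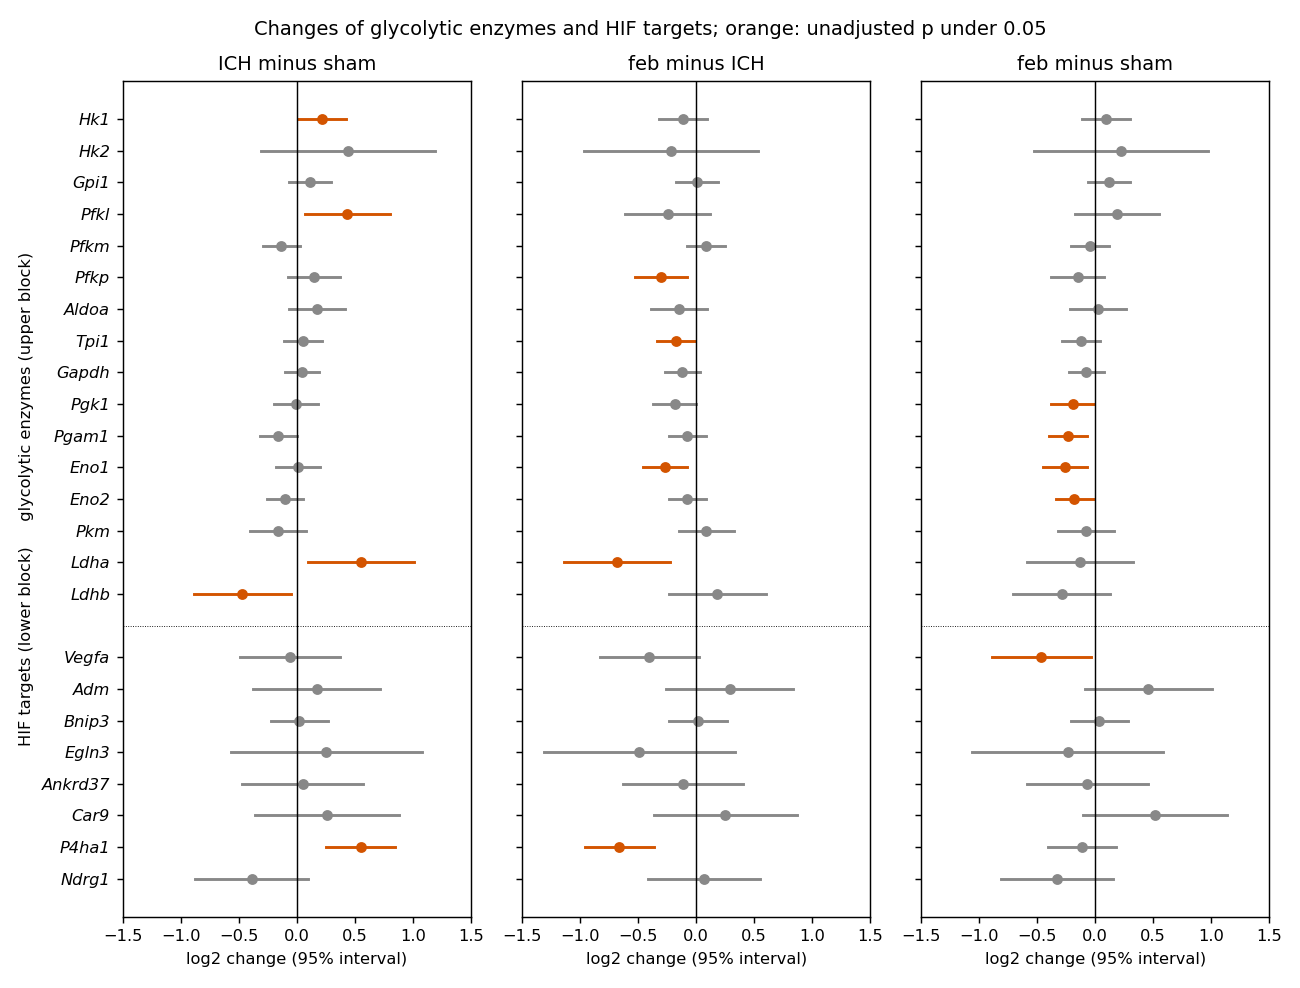
Log2 change (points) and 95% interval (lines) of the 16 glycolytic enzymes (upper block) and 8 HIF targets (lower block) in each contrast, orange where the unadjusted p is under 0.05. Most intervals cross 0 in every contrast, and the intervals of the HIF targets Egln3, Car9 and Adm are wider than those of the abundant enzymes.

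Averaged over its genes, the enzyme list lay at 0.03, -0.003 and -0.02 relative to the sham mean in sham mice, at 0.0005, 0.21 and 0.002 in ICH mice and at -0.08, -0.07 and -0.06 in feb mice on the log2 scale. A single mouse, ICH replicate 2, set the ICH group apart in this list, while the 3 feb mice were close to each other and below all others. The transporter list lay at 0.21, 0.32 and 0.21 in ICH mice, against -0.05, 0.07 and -0.02 in sham and -0.12, -0.04 and -0.16 in feb mice, with no overlap of the ICH mice with the others. The HIF target list lay between -0.07 and 0.11 in sham, 0.03 and 0.21 in ICH and -0.15 and 0.08 in feb mice, with overlap in each contrast. The mean over all genes tested ranged from -0.04 to 0.16 on this scale.

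**Figure D4:**
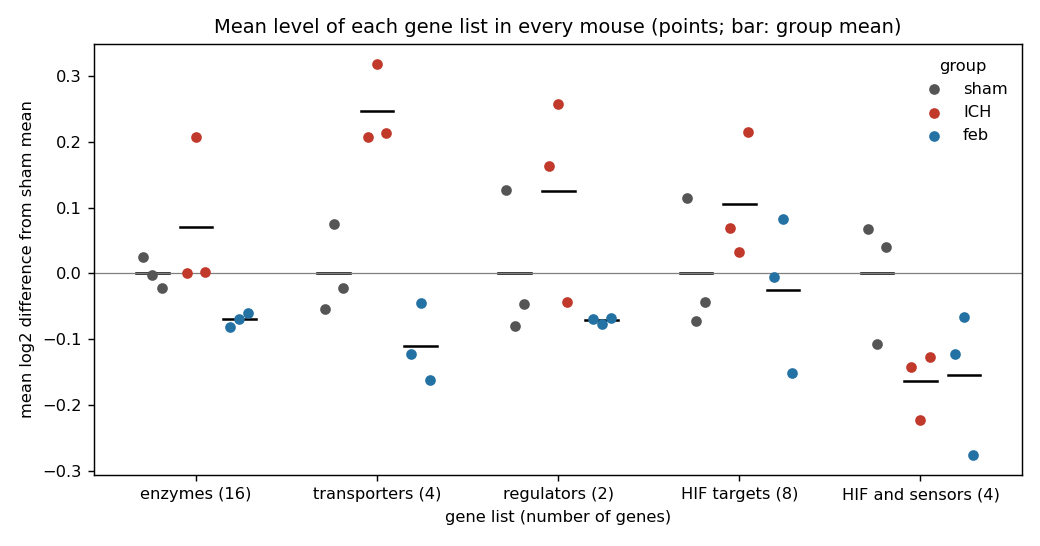
Mean log2 difference from the sham mean for each gene list in every mouse (points), with group means (bars). Enzymes are lowest in the 3 feb mice, between -0.08 and -0.06, transporters are highest in the 3 ICH mice, between 0.21 and 0.32, and HIF targets overlap between groups.

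Further genes of both pathways were taken from lists written with earlier results of these data known. Of 25 other glycolysis genes 24 passed the filter on low values, and 2 were higher in ICH against sham mice (Hkdc1 and Pgam2) and 0 lower, or 8.33% called higher against 7.88% of all genes tested, which is close to the background. Hkdc1, a hexokinase-related gene of low level, had RPKM values of 0.455, 0.313 and 0.118 in sham, 0.955, 1.61 and 1.42 in ICH and 0.287, 1.13 and 0.549 in feb mice. No ICH value was as low as the highest sham value, and the log2 change of 1.93 ± 0.48 (SE, adjusted p = 0.33 by limma) was over 2-fold. Pgam2, the muscle form of the mutase, was higher by 0.84 ± 0.32 (SE, adjusted p = 0.38 by limma), with sham replicate 2 at 8.24, above ICH replicate 3 at 8.23. Slc2a1 (GLUT1), the glucose carrier of the blood-brain barrier, had 17.8, 15.1 and 18.5 in sham, 20.1, 16.9 and 19.5 in ICH and 26.4, 20.2 and 25.99 in feb mice. Every feb mouse was above every other mouse, by 0.35 ± 0.13 against ICH and 0.49 ± 0.13 against sham mice on the log2 scale (SE, adjusted p = 0.39 and 0.56 by limma). In feb against ICH mice 1 of the 24 was higher and 1 lower, against 4.9% and 6.16% of all genes, and in feb against sham mice 3 were higher and 1 lower, against 5.63% and 2.9%.

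Of 32 other hypoxia response genes, 3 (9.38%) were higher and 0 lower in ICH against sham mice, near the 7.88% of all genes tested that were higher. In feb against ICH mice 1 was higher and 7 lower, against 4.9% and 6.16% of all genes (7.90% lower among the expressed), and in feb against sham mice 3 were higher and 3 lower, against 5.63% and 2.9%. The 3 higher in ICH mice were Epo, Arnt2 and Ccng2. Epo, which encodes erythropoietin and is a known HIF-2α target, had RPKM values of 9.58, 11.9 and 10.5 in sham, 13.8, 13.8 and 15.4 in ICH and 11.001, 10.5 and 12.4 in feb mice. The ICH mice had the 3 highest values, by 0.42 ± 0.11 against sham, and feb mice were at -0.34 ± 0.11 relative to ICH mice on the log2 scale (SE, adjusted p = 0.33 and 0.33 by limma). Epo shares 104 of its exon bases (12.2%) with Gnb2 on the same strand, a gene with 1471 to 2134 reads per mouse against 226 to 344 for Epo, so the Epo level is uncertain. Arnt2, the brain partner of HIF, rose by 0.27 ± 0.10 and the cell cycle gene Ccng2 by 0.44 ± 0.18 (SE, adjusted p = 0.38 and 0.39 by limma).

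Hif3a, which encodes a HIF subunit with forms that restrain the others, had RPKM values of 0.333, 0.285 and 0.467 in sham, 1.46, 0.550 and 0.609 in ICH and 2.16, 1.02 and 3.24 in feb mice. Every feb mouse was above every sham mouse, with a log2 change of 2.16 ± 0.46, and the change against ICH mice was 1.18 ± 0.46 (SE, adjusted p = 0.48 and 0.41 by limma). Car12, a carbonic anhydrase of epithelia, had 0.700, 1.47 and 0.829 in sham, 1.47, 2.77 and 1.0002 in ICH and 0.617, 0.594 and 0.890 in feb mice, and was lower in feb than in ICH mice by -1.11 ± 0.38 (SE, adjusted p = 0.37 by limma). The choroid plexus markers, also epithelial, were lower in the same mice, and their part was not tested. Fam162a, a hypoxia-induced mitochondrial protein, had 27.8, 25.8 and 24.1 in sham, 24.9, 28.2 and 23.6 in ICH and 20.9, 20.3 and 19.0 in feb mice. All feb values lay below all others, by -0.34 ± 0.09 against ICH and -0.36 ± 0.09 against sham mice (SE, adjusted p = 0.28 and 0.56 by limma).

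The receptors of VEGF were lower in feb mice. Kdr, its main signaling receptor, had RPKM values of 3.26, 2.34 and 2.25 in sham, 1.90, 2.28 and 2.19 in ICH and 1.45, 1.87 and 1.21 in feb mice, with log2 changes of -0.75 ± 0.20 against sham and -0.48 ± 0.20 against ICH mice (SE, adjusted p = 0.56 and 0.43 by limma). Flt1, the decoy-like receptor, was lower in feb than in ICH mice by -0.29 ± 0.11 (SE, adjusted p = 0.39 by limma). The endothelial marker Pecam1 had 4.32, 3.99 and 4.41 in sham, 4.45, 4.34 and 3.99 in ICH and 3.58, 3.01 and 3.20 in feb mice, and was called lower against both. Of the 5 endothelial markers, 2 were lower in feb against ICH mice (Pecam1 and Cdh5) and 3 in feb against sham mice, while Slco1a4 had a log2 change of 0.11 in each, and their part in the receptor results was not tested. Vhl, the ubiquitin ligase subunit that removes HIF, was lower in feb than in ICH mice by -0.43 ± 0.15 (SE, adjusted p = 0.38 by limma), and Ddit4, a stress-induced inhibitor of mTOR, was higher in feb than in sham mice by 0.87 ± 0.31 (SE, adjusted p = 0.56 by limma), with values of 12.5, 6.91 and 18.9 against 5.69 to 6.80.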

How the data were processed

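Total RNA from the brains of 9 mice was depleted of rRNA and sequenced with a stranded kit that marks molecules. The authors trimmed reads with Trimmomatic 0.36, collapsed them by molecular tag, aligned them to GRCm38, counted them on exons with featureCounts (Subread 1.5.1), tested with edgeR 3.12.1 and deposited RPKM values. The annotation release, the strand setting and the rule for reads with more than 1 match are not given in the sources used here. In every mouse 100% of the RPKM values came out as whole reads (tolerance 0.02 reads), so the reads were recovered. On a gene with 1 kb of exon, 3 reads correspond to an RPKM of 0.102 to 0.130.

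Genes that reached an RPKM of 0.1 in 3 or more of the 9 mice (29025, all 34 members among them) were fitted on log2(RPKM + 0.1) with limma 3.58.1 in R 4.3.3 (eBayes with trend, 9 mice in one fit, two-sided, Benjamini-Hochberg over all genes tested). The deposited unit is RPKM, so no count test was the main test. The study's call rule, an unadjusted p under 0.05 and a change over 2-fold, was counted beside p under 0.05 alone and the adjusted p. Members called are those with an unadjusted p under 0.05, which 12.3%, 11.1% and 8.54% of genes tested had in ICH against sham, feb against ICH and feb against sham. The fit was run on simulated data in which the altered genes changed by 2-fold or more. No member passed 2-fold, so that run does not cover changes of the size seen in the members. Nothing in the labels says that the mice came from separate cohorts, so p-values measure the spread between these samples.

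The members and gene lists were chosen with earlier results of these data known. All members are named, and values in every mouse are given for those with an unadjusted p under 0.05, for the 3 largest changes in each contrast and for Hif1a, Epas1, Vegfa and Gapdh. Other pathway genes are named when called over 2-fold or among the 5 lowest p-values of a contrast. Near-identical genes share at least 150 bases at 95% identity with a member's transcripts in GENCODE M21 for GRCm38. Promoter windows are from RefSeq for GRCm38.p6 and were matched by symbol. The alternatives were other pseudocounts (1 and 0.01), a filter at an RPKM of 1 or none, scaling to equal medians or by quantiles, a fit of the 2 groups compared, eBayes with no trend, a replicate block, voom on recovered reads, and leaving out each mouse. Adding the reads of near-identical genes was chosen after seeing the data. Same-numbered mice did not deviate together (correlations of -0.13 to 0.02). Mice of a group differed beyond sampling noise in all pairs, so none was counted as a copy.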

Additional observations from a re-analysis of the deposited data

How the results depend on the processing

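The 22 calls of a member in a contrast kept their direction under all 20 alternatives, and 7 of the 22 kept an unadjusted p under 0.05 under all of them: P4ha1 and Slc16a7 in ICH against sham and in feb against ICH, Ldha in feb against ICH, and Pgam1 and Eno1 in feb against sham. No member had an adjusted p under 0.05 under any alternative, and the lowest was 0.073. The number of members called ranged, with each mouse left out in turn, from 2 to 12 in ICH against sham (9 with all mice), 5 to 8 in feb against ICH (7) and 2 to 7 in feb against sham (6). In feb against sham it was 3 under eBayes without trend and 2 with the replicate block, against 7 and 6 with the block in the other contrasts. The replicate numbers pair no mice, so the block is a check only. The cause of these differences was not tested, but leaving out a mouse also lowers the number of mice in the fit. Counts over 2-fold were 0 throughout. Enzymes minus HIF targets ranged from -0.14 to 0.05, -0.10 to 0.10 and -0.11 to 0.01 with mice left out. Depth limits Car9, Egln3, Slc16a3 and Adm, none of which passed 123 reads in a mouse.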

Other observations

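Ratios of RPKM between related members within a mouse do not depend on the scaling between mice, and 9 such ratios were computed. Their level depends on the exon lengths of both genes, so they serve to compare mice only. The ratio of the muscle to the platelet form of phosphofructokinase (Pfkm over Pfkp) was 3.39, 3.27 and 3.65 in sham, 2.81, 2.54 and 3.14 in ICH and 4.06, 3.44 and 3.60 in feb mice. All ICH values lay below those of both other groups. Pfkm over the liver form Pfkl was 5.85, 4.62 and 5.15 in sham, 4.02, 2.56 and 4.16 in ICH and 4.61, 4.56 and 4.06 in feb mice, with sham values above all others but the lowest sham and the highest feb value nearly equal. The monocarboxylate carriers Slc16a1 over Slc16a7 were at 5.48, 2.85 and 5.005 in sham, 2.18, 2.31 and 2.51 in ICH and 2.64, 3.54 and 3.40 in feb mice, again lowest in the 3 ICH mice. The mitophagy receptors Bnip3l over Bnip3 were at 1.14, 1.17 and 1.32 in sham and 1.04, 0.981 and 1.01 in ICH mice, without overlap, and at 0.910, 1.32 and 0.803 in feb mice. Eno2 over Eno1, the neuronal over the general enolase, was 1.18, 1.30 and 1.10 in sham, 1.10, 1.04 and 1.16 in ICH and 1.24, 1.22 and 1.34 in feb mice, with all feb mice above all ICH mice. Hk1 over Hk2, Epas1 over Hif1a, Egln1 over Egln3 and Ldhb over Ldha overlapped in every contrast. These ratios were not tested and are given as values.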
